A study of Mus musculus with 22 samples.

Results

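Mouse embryonic stem cells carry H3K4me3 and H3K27me3 at the same promoters of many developmental genes, and the deposited peak lists of both marks in wild-type E14 cells were compared promoter by promoter. Promoters were windows reaching 1 kb up- and downstream of each transcription start site (TSS) of a protein-coding gene, taken from the GENCODE M21 basic annotation of the genome build GRCm38, which gave 21827 genes. A promoter had a mark when a peak of its list touched this window by at least 1 bp. Of the 21827 promoters, 3984 had both marks, 10322 had H3K4me3 only, 222 had H3K27me3 only and 7299 had neither.

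The series holds 22 chromatin immunoprecipitation sequencing (ChIP-seq) samples in 12 groups, and 4 of the samples are the H3K4me3 and H3K27me3 libraries of wild-type cells, 2 per mark. E14 is an embryonic stem cell line, and per the labels all cells were grown in serum with LIF, the cytokine that keeps them undifferentiated. Lists of gene-trap H3K4me3 and H3K27me3, and of wild-type MTF2 and EZH2, served as further readouts, again with 2 libraries per list. The gene-trap cells are homozygous for a cassette that disrupts the coding sequence of Mtf2, and the labels give no parental line for them, so genotype and line background cannot be told apart. Each mark in each genotype is 1 list made from 2 libraries, so no spread between replicates could be measured, no difference was tested, and the depth of the libraries is unknown. The intervals given are exact Clopper-Pearson 95% intervals for shares and order-statistic 95% intervals for medians. They cover counting over promoters only, and neighbouring genes can share a peak.

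H3K4me3 is laid down by the SET1 and MLL methyltransferase complexes and marks the start sites of active and poised genes. H3K27me3 is laid down by Polycomb repressive complex 2 (PRC2), whose catalytic subunit is EZH2 and which MTF2, a Polycomb-like protein, joins as an accessory subunit, and it marks silenced developmental genes. Chromatin that carries both marks is called bivalent. It was described first in embryonic stem cells, at CpG-rich promoters of regulators that are silent there and are used later in single lineages.

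The 200 bases before the start of 7 genes show how base composition varied within and between the classes. They were chosen after their values were seen, from genes of each class with an entry in the RefSeq promoter table (GRCm38.p6, 7 of 7 sought were found) and with no exon in these bases. Lhx5, which comes up below, is not among them. Each is printed 5′ to 3′ on the strand of the gene, with CpG (the letters CG, which read the same on both strands) in capitals. Fgf9, a growth factor, and Gata2, a blood and neural regulator, had both marks. The Gata2 bases precede its start at position 88193891, whereas the class medians of CpG density use its start at position 88198334. Suz12, a PRC2 subunit, and Nanog, a pluripotency factor, had H3K4me3 only. Hormad1, a meiotic chromosome protein, and Tnf, a cytokine, had H3K27me3 only, and Cer1, a secreted Nodal and BMP inhibitor, had neither mark.
Fgf9: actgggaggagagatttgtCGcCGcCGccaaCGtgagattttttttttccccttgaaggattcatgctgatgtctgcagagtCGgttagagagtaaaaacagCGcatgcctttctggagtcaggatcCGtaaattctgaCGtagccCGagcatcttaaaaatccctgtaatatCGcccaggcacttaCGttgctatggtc
Gata2: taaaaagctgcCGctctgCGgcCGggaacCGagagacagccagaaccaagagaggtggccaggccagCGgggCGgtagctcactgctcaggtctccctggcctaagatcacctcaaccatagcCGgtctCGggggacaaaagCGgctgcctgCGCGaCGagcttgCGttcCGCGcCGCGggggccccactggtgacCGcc
Suz12: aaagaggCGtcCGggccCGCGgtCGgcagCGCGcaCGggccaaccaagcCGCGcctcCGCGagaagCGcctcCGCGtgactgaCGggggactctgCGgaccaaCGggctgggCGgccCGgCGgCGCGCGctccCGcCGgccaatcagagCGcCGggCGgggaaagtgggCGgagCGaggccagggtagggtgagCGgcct
Nanog: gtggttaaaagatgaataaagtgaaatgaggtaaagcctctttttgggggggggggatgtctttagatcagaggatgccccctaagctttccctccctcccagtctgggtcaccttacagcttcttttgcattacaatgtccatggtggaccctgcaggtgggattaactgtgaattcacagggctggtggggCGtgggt
Hormad1: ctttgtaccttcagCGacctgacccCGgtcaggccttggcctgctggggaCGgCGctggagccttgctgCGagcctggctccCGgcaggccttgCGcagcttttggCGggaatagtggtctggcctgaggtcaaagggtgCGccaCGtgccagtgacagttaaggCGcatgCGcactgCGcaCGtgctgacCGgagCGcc
Tnf: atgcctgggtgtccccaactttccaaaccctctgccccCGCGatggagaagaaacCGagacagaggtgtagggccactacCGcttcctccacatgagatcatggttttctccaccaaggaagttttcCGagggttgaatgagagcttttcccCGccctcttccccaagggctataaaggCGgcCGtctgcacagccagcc
Cer1: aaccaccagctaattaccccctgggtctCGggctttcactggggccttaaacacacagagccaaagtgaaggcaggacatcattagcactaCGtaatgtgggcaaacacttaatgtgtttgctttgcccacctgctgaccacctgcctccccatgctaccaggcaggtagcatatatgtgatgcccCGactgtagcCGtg
These 200 bases held 11 CpG at Fgf9 and 18 at Gata2, 32 at Suz12 and 1 at Nanog, 16 at Hormad1 and 8 at Tnf, and 4 at Cer1. Of the 32851 RefSeq promoters, 89.4% held at least 1 CpG in the same 200 bases, with a median of 5. The H3K4me3-only pair spans the whole range from Suz12 to Nanog, and Hormad1 held more CpG than Fgf9, against the order of the class medians given further on. The Fgf9 bases lie at chr14:58072486-58072685 (+), Gata2 at chr6:88193691-88193890 (+), Suz12 at chr11:79992906-79993105 (+), Nanog at chr6:122707289-122707488 (+), Hormad1 at chr3:95559477-95559676 (+), Tnf at chr17:35202008-35202207 (−) and Cer1 at chr4:82885152-82885351 (−).

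Most promoters with H3K27me3 also had H3K4me3. Promoters with both marks made up 18.3% of all promoters (interval 17.7% to 18.8%), and those with H3K4me3 only made up 47.3% (46.6% to 48.0%). H3K27me3 without H3K4me3 was found at 1.02% (0.888% to 1.16%), and 33.4% (32.8% to 34.1%) had neither mark. H3K4me3 was found at 94.7% of the 4206 promoters with H3K27me3 (94.0% to 95.4%), against 58.6% of the 17621 promoters without it (57.8% to 59.3%). These shares are not matched for CpG density, and the contrast was not seen among CpG-richer promoters, as given further on. With peaks under 1000 bp left out of both lists, 694 promoters in place of 222 had H3K27me3 only, and H3K4me3 was found at 83.2% of the promoters with H3K27me3. Read the other way, H3K27me3 was found at 27.8% of the 14306 promoters with H3K4me3, against 2.95% of the 7521 promoters without it. The share with H3K4me3 varied little with the width of the H3K27me3 peak: it was 92.9% in the quintile of promoters with the narrowest H3K27me3 peaks and 95.6% in the quintile with the widest.

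At promoters with H3K4me3, few H3K27me3 calls lay close to the edge of the window. Of these promoters, 8 had their nearest H3K27me3 base in the outermost 100 bp of the window, and 12 had it in the first 100 bp beyond the window. The class with H3K27me3 only depended more on the window. It held 222 promoters here, 161 in a 2500 bp window and 300 at the TSS base. At 2000 bp downstream of the start, 22.5% of the 222 were under an H3K4me3 peak. At 3387 of the 3984 promoters with both marks (85.0%) the H3K27me3 peak covered a TSS itself. The H3K4me3 peak covered a TSS at 3812 of them (95.7%), and both marks covered one TSS base at 3225 (80.9%). Of the promoters with both marks, 2132 (53.5%) had more than 1 TSS, so the marks could in principle lie at different starts of 1 gene. At 3968 (99.6%), however, both marks lay within 1 kb of the same TSS.

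At promoters with both marks, the H3K4me3 peak usually lay as a short segment inside a longer H3K27me3 domain. For each gene the pair of peaks with the most shared bases was taken. The H3K4me3 peak lay wholly inside the H3K27me3 peak at 2853 promoters (71.6%, interval 70.2% to 73.0%). The peaks overlapped in part at 924 (23.2%), the H3K27me3 peak lay wholly inside the H3K4me3 peak at 167 (4.19%), and no base was shared at 40 (1.004%). In all, 3944 promoters had peaks that shared bases, with a median of 1591.5 shared bp (quartiles 1106 and 2272). The shared bases made up a median of 100% of the H3K4me3 peaks and 36.9% of the H3K27me3 peaks at these promoters. Where H3K4me3 was nested, H3K27me3 reached a median of 1501 bp beyond it upstream and 1659 bp downstream.

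The marks also differed in where they lay around the start. At the TSS itself, 94.95% of the promoters with both marks were under an H3K4me3 peak and 84.6% under an H3K27me3 peak, counted at 1 representative TSS per gene. At 500 bp downstream the shares were 90.2% for H3K4me3 and 93.6% for H3K27me3, and at 2000 bp downstream they were 17.2% and 67.9% in the same order. At 1000 bp upstream, 26.8% were under H3K4me3 and 74.2% under H3K27me3. H3K27me3 coverage thus was highest downstream of the start and reached further than H3K4me3 on both sides. Promoters with H3K4me3 only had broader H3K4me3 coverage, with 97.2% at the TSS, 82.8% at 1000 bp downstream (59.1% where both marks were present) and 36.05% at 2000 bp downstream.

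**Figure D1:**
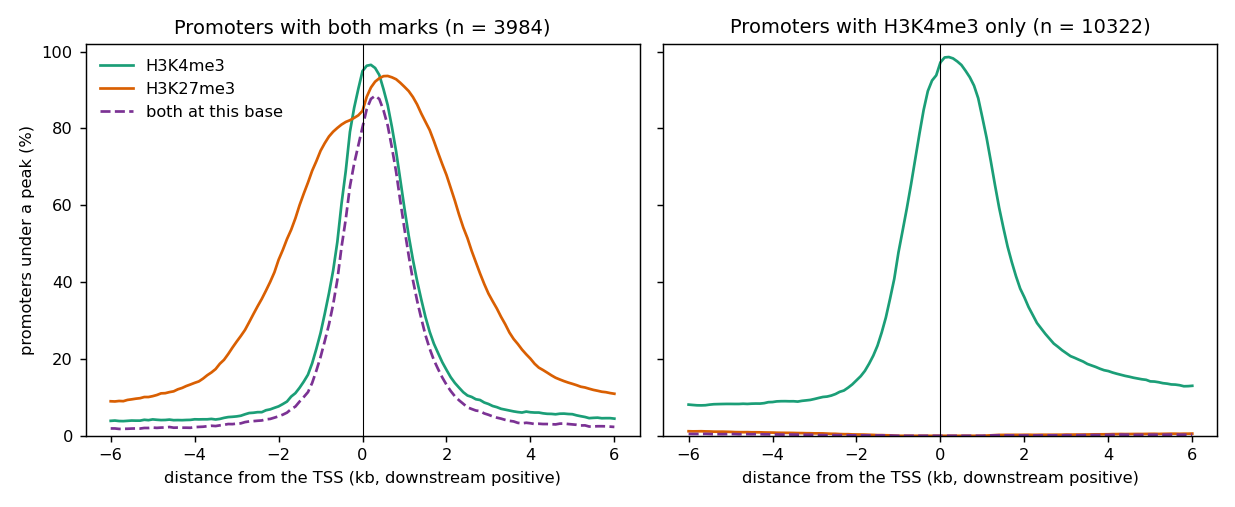
Share of promoters under a peak (%, vertical axis) by distance from the TSS (kb, downstream positive) for promoters with both marks (left, n = 3984) and with H3K4me3 only (right, n = 10322). In the left panel H3K27me3 (orange) spreads to both sides of a narrow H3K4me3 segment (green), and the dashed line gives the share of promoters where both marks cover the base; at 2000 bp downstream H3K4me3 covers 17.2% of the promoters on the left and 36.05% on the right.

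H3K4me3 peaks were narrower where H3K27me3 was present. The widest H3K4me3 peak at a promoter had a median width of 1840.5 bp with both marks (quartiles 1302 and 2675, interval of the median 1804 to 1883 bp), against 2730 bp with H3K4me3 only (quartiles 1911 and 4196, interval 2688 to 2759 bp). The ratio of the medians was 0.674, a log2 difference of -0.57. The quartile ranges overlapped, so width alone does not tell a promoter's class. H3K27me3 peaks were somewhat wider with both marks, at a median of 4250.5 bp, against 3632 bp with H3K27me3 only (interval 3272 to 4117 bp), a ratio of 1.17. The size of this H3K27me3 difference depended on the setting, as given further on. Among promoters with both marks, the H3K4me3 width had a median of 1658 bp where it lay inside H3K27me3, 2372.5 bp where the peaks overlapped in part and 3720 bp where H3K27me3 lay inside it. Part of that order follows from how the arrangement is defined, since a wide peak is less easily enclosed. Across the 3984 genes with both marks the widths of the marks had a Spearman rho of 0.236, a description over genes that are not independent and can share peaks.

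**Figure D2:**
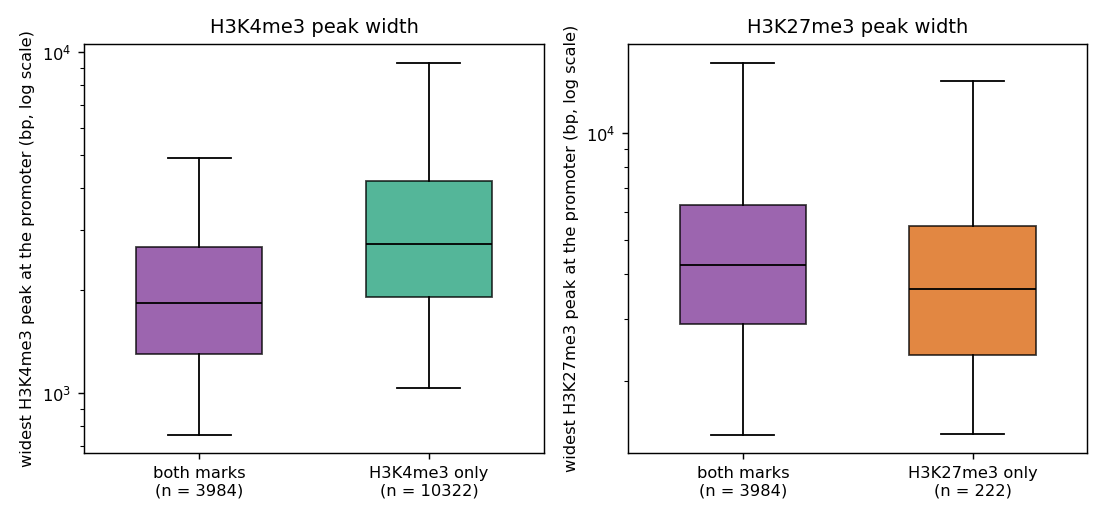
Width of the widest H3K4me3 peak (left) and H3K27me3 peak (right) at a promoter, in bp on log scales, by class. Boxes give the quartiles with the median as a line, and whiskers reach from the 5th to the 95th percentile of promoters; the H3K4me3 median is 1840.5 bp with both marks and 2730 bp with H3K4me3 only.

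CpG density separated promoters with H3K4me3, with or without H3K27me3, from the rest. CpG was counted within 500 bp of the same TSS chosen by the marks, or of the most upstream TSS where neither mark was present. The median was 6.59 CpG per 100 bp at promoters with both marks (quartiles 4.70 and 8.89) and 6.29 at those with H3K4me3 only (4.60 and 8.29). It was 2.25 with H3K27me3 only (1.499 and 3.20) and 0.799 with neither mark (0.400 and 1.40). The first pair of distributions overlapped almost wholly, and promoters with H3K27me3 only lay between them and the unmarked ones. The G and C content followed the same order, with medians of 62.1% with both marks, 59.0% with H3K4me3 only, 52.9% with H3K27me3 only and 45.0% with neither.

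Ordered into quintiles of CpG density, the CpG-poorest promoters were nearly all unmarked (97.2%), and 15 (0.359%) of them had both marks. In the next quintile 5.67% had both marks, and this one also held the highest share with H3K27me3 only, 2.78%. In the 3 CpG-richer quintiles the share with both marks was 27.1%, 26.4% and 31.0%, and that with H3K4me3 only 67.7%, 72.6% and 68.8%. H3K27me3 without H3K4me3 was found at 70, 3 and 0 promoters of these 3 quintiles, and neither mark at 155, 39 and 8. Nearly all promoters there thus had H3K4me3, with or without H3K27me3. Most promoters with neither mark, which lower the H3K4me3 share without H3K27me3, lay in the CpG-poorer quintiles (4065 and 3032). The part of CpG density in that lower share was not tested. The width difference of H3K4me3 was present within each quintile: from the CpG-poorest to the richest, the medians with both marks and with H3K4me3 only were 1192 and 2124 bp, 1383 and 1813 bp, 1384 and 2154.5 bp, 1786 and 2793 bp, and 2284 and 3442 bp. In both classes H3K4me3 peaks were wider at higher CpG density, with a Spearman rho across genes of 0.395 with both marks and 0.406 with H3K4me3 only.

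**Figure D3:**
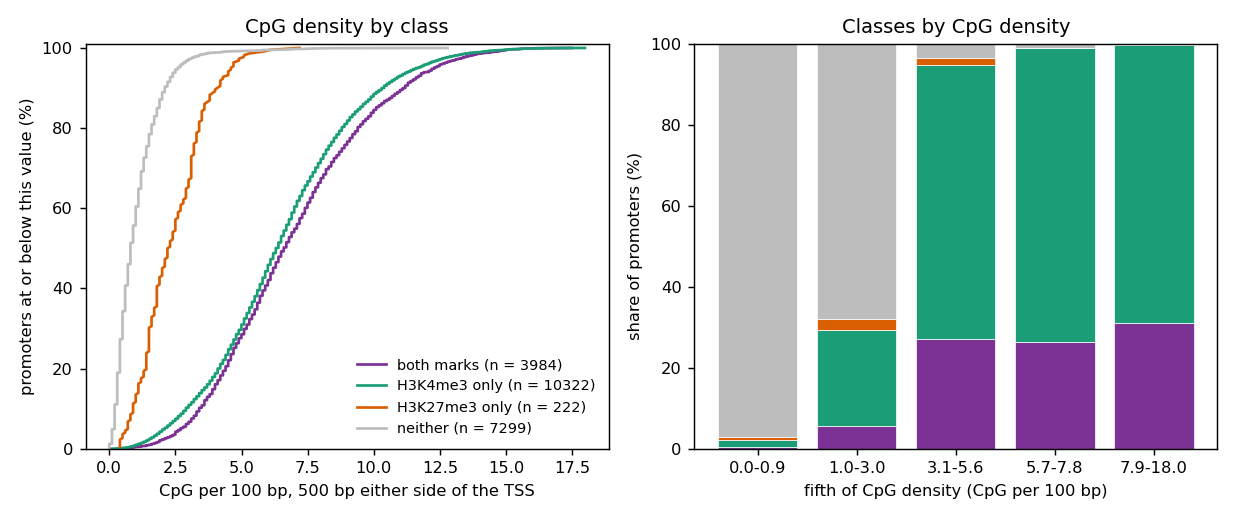
Left: cumulative share of promoters (%) by CpG per 100 bp within 500 bp of the TSS, by class. Right: share of each class (%) in quintiles of that density over all promoters, in the same colours; both marks (purple) reach 31.0% in the richest quintile and 0.359% in the poorest.

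Most genes in the lists of body plan and lineage regulators had both marks. The members of 18 gene lists, 489 genes in all, were counted by class and are read against the 18.3% of all promoters with both marks, with no test of a list. Of 67 neural regulators, 64 had both marks, 1 had H3K4me3 only and 2 had H3K27me3 only. Both marks were also found at 34 of 39 Hox genes, 30 of 36 mesoderm and muscle regulators, 16 of 20 endoderm regulators, 42 of 50 signalling ligands and inhibitors and 35 of 44 neuronal channels and receptors. At the other end stood pluripotency genes with 3 of 29, cell cycle genes with 1 of 26, housekeeping genes with 1 of 30, H3K4 methyltransferases and their partners with 0 of 12 and demethylases of H3K4 and H3K27 with 0 of 8. Liver and blood plasma genes had neither mark at all 19 promoters, and immune lineage genes had neither at 19 of 20. The median CpG density was 6.49 per 100 bp in the neural list and 1.10 in the liver list.

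**Figure D4:**
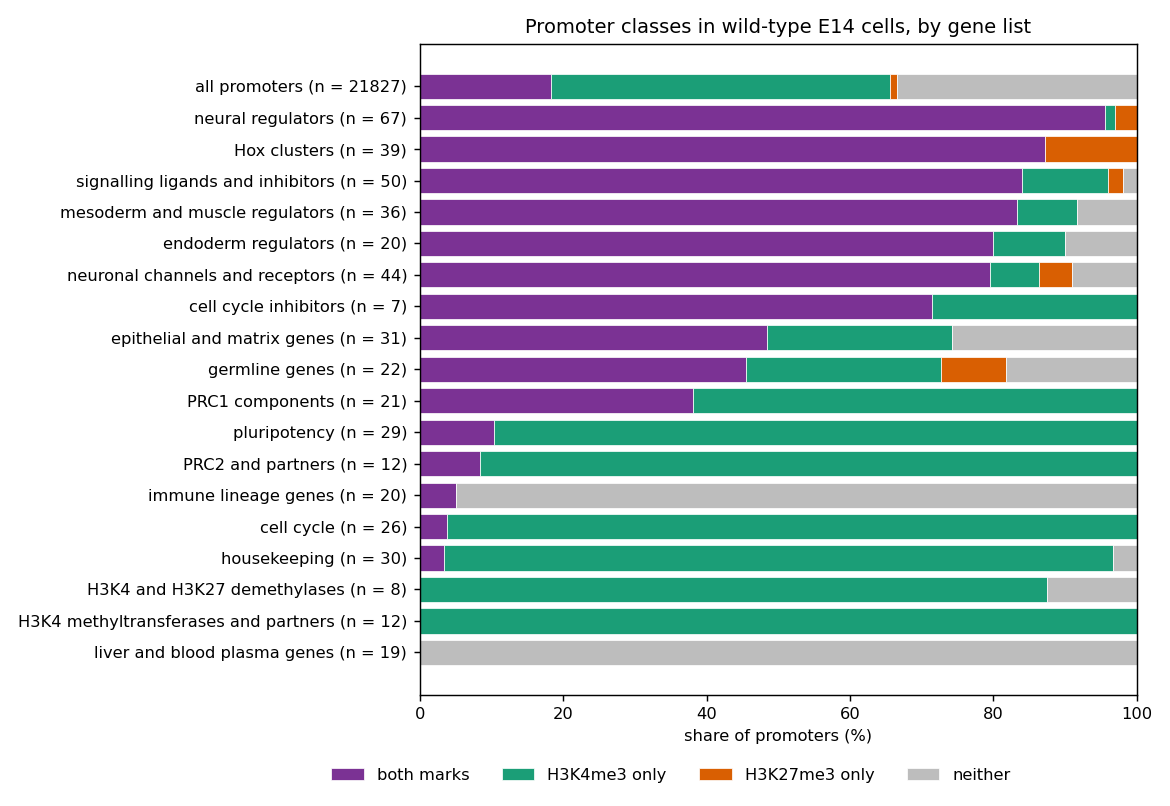
Share of promoters (%) with both marks, H3K4me3 only, H3K27me3 only or neither in all 21827 promoters (top) and in 18 gene lists, ordered by the share with both marks. Lists of developmental regulators are mostly purple (64 of 67 neural regulators), lists of genes used in every cell mostly green, and liver and immune genes mostly grey.

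The Hox genes, which encode the homeodomain proteins that pattern the body axis, lay in the broadest H3K27me3 domains. In the peak list 3 H3K27me3 domains at promoters exceeded 100 kb: a domain of 133253 bp on chromosome 11 over Hoxb1 to Hoxb9, 1 of 118123 bp on chromosome 6 over Hoxa2 to Hoxa13 and 1 of 108818 bp on chromosome 15 over Hoxc4 to Hoxc12. Within them H3K4me3 came as short peaks, with a median widest peak of 2035 bp over the Hox list. At Hoxa10 the H3K4me3 peak of 2946 bp (chr6:52232311-52235256) lay inside the Hoxa domain (chr6:52159449-52277571). Hoxc12 had the broadest shared stretch of the list, 7300 bp, where an H3K4me3 peak of 10199 bp (chr15:102930124-102940322) ran across the edge of the Hoxc domain. All 5 Hox genes that lacked H3K4me3 had H3K27me3 only, and they were Hoxa3, Hoxb1, Hoxb2, Hoxb3 and Hoxd12. MTF2 and EZH2 peaks touched the promoters of all 39 Hox genes.

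Outside the Hox clusters, lineage regulators had wide H3K27me3 peaks, while the width of H3K4me3 differed between the lists. Over the neural list the median widths were 3192 bp for H3K4me3 and 18907 bp for H3K27me3. In the same order they were 2439 and 16855 bp over the mesoderm and muscle list and 3774.5 and 13455.5 bp over the endoderm list. List medians take every member with a peak of the mark, whatever its class. Over all promoters, the H3K4me3 median was 1840.5 bp with both marks and 2730 bp with H3K4me3 only. Lhx5, a LIM homeodomain factor of the forebrain, had an H3K4me3 peak of 7956 bp (chr5:120430791-120438746) inside an H3K27me3 peak of 20811 bp (chr5:120420309-120441119). Irx3, an Iroquois homeodomain factor, had 7777 bp inside 15862 bp on chromosome 8. Tal2 was the neural regulator with H3K4me3 only (1431 bp), and Zic4, a zinc finger factor of the cerebellum, had H3K27me3 only, over 39458 bp. H3K4me3 was called at Zic4 in the gene-trap list.

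Among mesoderm and muscle regulators, Gata2 had 6092 shared bp in an H3K27me3 domain of 19714 bp (chr6:88187843-88207556). Tbx3 and Tcf15 had H3K4me3 only, over 21255 and 7122 bp. Meox1 and Msgn1, both early mesoderm factors, had neither mark, each at 2.40 CpG per 100 bp. Among endoderm regulators, Gsc, an organizer homeodomain factor, had an H3K4me3 peak of 5953 bp inside 10624 bp of H3K27me3, and Nkx2-1, of lung and thyroid, 4981 bp inside 27660 bp. Sox2 (12498 bp), which the stem cells use themselves, and Foxa3 (3938 bp) had H3K4me3 only, and Hnf4a and Cer1 had neither.

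Of the 50 signalling ligands and inhibitors, 42 had both marks, 6 had H3K4me3 only, 1 had H3K27me3 only and 1 had neither. The Fgf9 peak of H3K4me3 (6926 bp, chr14:58070269-58077194) lay inside 11281 bp of H3K27me3 (chr14:58068388-58079668), around the bases printed above. Wnt5a, a non-canonical Wnt ligand, had 5839 shared bp in a domain of 19630 bp. The 6 members with H3K4me3 only were Fgf4, Bmp4, Nodal, Lefty1, Lefty2 and Inhbb, of the FGF, BMP, Nodal and activin pathways, with widths of 5137 to 9669 bp. Wnt8a had H3K27me3 only, and Bmp5 had neither. By symbol, 17 of 19 Wnt genes and 14 of 22 Fgf genes had both marks, and so did 15 of 19 Sox, 25 of 44 Fox and 8 of 13 Tbx transcription factor genes.

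Neuronal channel and receptor genes had narrower peaks than the regulators, with medians of 1758.5 bp for H3K4me3 and 4999 bp for H3K27me3. Nrxn2, a presynaptic adhesion protein, had 4017 shared bp, and Adra2a, an adrenergic receptor, had an H3K4me3 peak of 3833 bp inside 6886 bp of H3K27me3. Cacna1a, a calcium channel subunit, had H3K4me3 only (4123 bp) but was touched by MTF2 and EZH2 peaks. Grm5, a glutamate receptor, and Htr2c, a serotonin receptor, had H3K27me3 only, over 3488 and 1585 bp. The glutamate receptor genes Gria1 and Gria3 had neither mark, but Gria3 had MTF2 and EZH2 peaks and H3K4me3 in the gene-trap list. Of 92 potassium channel genes by symbol (Kcn), 62 had both marks.

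Pluripotency genes had H3K4me3 without H3K27me3 and the widest H3K4me3 of the lists, with a median of 9222 bp. Pou5f1, Nanog and Zfp42 had H3K4me3 peaks of 10799, 11428 and 21983 bp and no H3K27me3, MTF2 or EZH2 peak. Of 12 markers of undifferentiated stem cells, 10 had H3K4me3 only, and the other two, Esrrb and Dppa3, had both marks, so H3K4me3 was present at all 12. Esrrb, an orphan nuclear receptor of the pluripotency network, had an H3K4me3 peak of 36617 bp at 1 start and, at another, 2778 bp of H3K4me3 inside 8793 bp of H3K27me3 (chr12:86418302-86427094). Dppa3, a maternal factor that guards DNA methylation, had H3K4me3 over 2949 bp inside H3K27me3 of 13636 bp (chr6:122618608-122632243), with no MTF2 or EZH2 peak. Prdm14, a repressor of lineage genes, was the third pluripotency gene with both marks, and its H3K27me3 peak of 3006 bp lay inside 5301 bp of H3K4me3.

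Fibroblast markers were looked at because feeder cells are a common companion of stem cells, and whether feeders were used is not given in the sources used here. Of 8 such genes, Col3a1, Dcn, Lum and Postn had neither mark. Col1a1, Col1a2, Thy1 and Twist2 had both marks, with H3K4me3 pair widths of 754 to 2439 bp. The part of other cells in these values was not tested, and in bulk material both marks at 1 promoter can lie on the same or on different alleles and cells, which cannot be told apart here.

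Housekeeping and cell cycle genes had H3K4me3 only, with few exceptions. B2m, the light chain of MHC class I, had 1825 bp of H3K4me3 inside 3505 bp of H3K27me3, and Cdk6, a G1 kinase, had 2332 bp of H3K27me3 inside 5227 bp of H3K4me3. Of 7 inhibitors of cyclin-dependent kinases, 5 had both marks, and 3 did when the TSS base itself had to lie under the peaks. Cdkn2a (Ink4a and Arf) had 3614 shared bp in a domain of 40881 bp that also held Cdkn2b, Cdkn1c (p57) had 2882 bp of H3K4me3 inside 14154 bp, and Cdkn1b (p27) and Cdkn2d had H3K4me3 only, over 4613 and 2526 bp. By symbol, 82 of 83 cytosolic ribosomal protein genes, 46 of 48 proteasome genes and all 45 Nduf genes of respiratory complex I had H3K4me3 only.

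Of 12 genes of PRC2 and its partners, 11 had H3K4me3 only, and Phf19, a paralogue of Mtf2, had both marks, with 2232 shared bp of peaks of 2392 and 2381 bp. Mtf2 (21320 bp), Ezh2 (4242 bp), Eed (14146 bp), Suz12 (5641 bp) and Jarid2 (68628 bp) were among the 11, and Jarid2 had the widest H3K4me3 peak of all H3K4me3-only promoters. Of 21 PRC1 components, 8 had both marks, among them Bcor, with 8848 shared bp in a domain of 18611 bp.

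Germline genes were spread over all 4 classes, with 10 of 22 carrying both marks, 6 H3K4me3 only, 2 H3K27me3 only and 4 neither. Their H3K4me3 peaks were narrow, with a median of 1015.5 bp. Dmrt1, a gonadal regulator, had 2235 bp of H3K4me3 inside 7022 bp, and Taf7l, a spermatogenic TFIID subunit, 1281 bp inside 3590 bp. Hormad1 and Spo11, both of meiotic recombination, had H3K27me3 only, over 2956 and 2107 bp, and Nanos2 and Nanos3 had neither mark. Of epithelial and matrix genes, 15 of 31 had both marks, among them the cadherins Cdh2 (3313 bp of H3K4me3 inside 8637 bp) and Cdh3 (2839 bp inside 8364 bp). Cd14 was the only immune lineage gene with both marks, and 0 of the list had both when the TSS base itself had to lie under the peaks.

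The clustered protocadherins, neuronal adhesion proteins encoded in 3 adjacent clusters on chromosome 18, differed from cluster to cluster. They were singled out after their values were seen. Both marks were found at 10 of 13 Pcdha genes, 2 of 22 Pcdhb genes and 15 of 21 Pcdhg genes. H3K27me3 without H3K4me3 was found at 1 Pcdha, 16 Pcdhb and 0 Pcdhg genes. The median CpG density was 3.60, 1.499 and 3.30 per 100 bp in the Pcdha, Pcdhb and Pcdhg genes. These genes are near-identical copies in part, and how reads were placed among them is not given in the sources used here.

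Outside the lists, genes with many shared bases included Gnas, Osr2 (8647 bp) and Meis2 (8619 bp). Gnas, an imprinted gene of a G protein subunit with several promoters, had 10412 shared bp. The widest H3K4me3-only peaks outside the lists lay at Jade1 (54044 bp), Trim71 (44042 bp), Gtsf1l (40013 bp, a peak shared with Mybl2 of the pluripotency list) and Cisd3 and Mllt6, which share 1 of 34954 bp. The widest H3K27me3-only peaks outside the lists included those at Skor2 (24263 bp), Osr1 (17686 bp), Fgf6 (12300 bp) and Tnf (12275 bp). The transcription factor genes Skor2 and Osr1 had MTF2 and EZH2 peaks, and the growth factor and cytokine genes Fgf6 and Tnf had neither.

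Wild-type MTF2 and EZH2 lists gave readouts that the classes did not use. MTF2 was found at 82.4% of promoters with both marks (interval 81.2% to 83.6%), 1.46% with H3K4me3 only, 19.8% with H3K27me3 only (14.8% to 25.7%) and 0.0548% with neither, against 15.9% of all promoters. EZH2 was found at 84.6% with both marks, 1.98% with H3K4me3 only, 21.6% with H3K27me3 only and 0.0548% with neither, against 16.6% of all promoters. Genes that share peaks are counted one by one here, such as Hoxb1, Hoxb2 and Hoxb3 in 1 H3K27me3 domain. Of the 222 with H3K27me3 only, 16 were Pcdhb and 5 were Hox genes. The Pcdhb genes mostly had separate peaks, with 16 distinct H3K27me3 peaks at their promoters. The difference between the classes was not tested. MTF2 and EZH2 were both found at 3186 of the 3984 promoters with both marks (79.97%), and neither was found at 516 (13.0%).

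The arrangement of the marks and the factors moved together. MTF2 was found at 91.0% of promoters where H3K4me3 lay inside H3K27me3, 64.4% where the peaks overlapped in part, 53.9% where H3K27me3 lay inside H3K4me3 and 0 of 40 where no base was shared. The same shares for EZH2 were 92.3%, 68.9%, 59.9% and 3 of 40. Promoters with both marks and both factors had a median H3K27me3 peak of 4772.5 bp and 6.99 CpG per 100 bp, against 2282.5 bp and 4.70 CpG per 100 bp for those with both marks and neither factor. Their H3K4me3 peaks had medians of 1888.5 bp with both factors and 1651.5 bp with neither. By arrangement, CpG density did not follow the order of the MTF2 and EZH2 shares. Its median per 100 bp was 6.49 where H3K4me3 lay inside H3K27me3 and 6.89 where the peaks overlapped in part. It was 7.69 where H3K27me3 lay inside H3K4me3 and 4.70 where no base was shared. The separate parts of widths and CpG density in these shares were not tested.

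**Figure D5:**
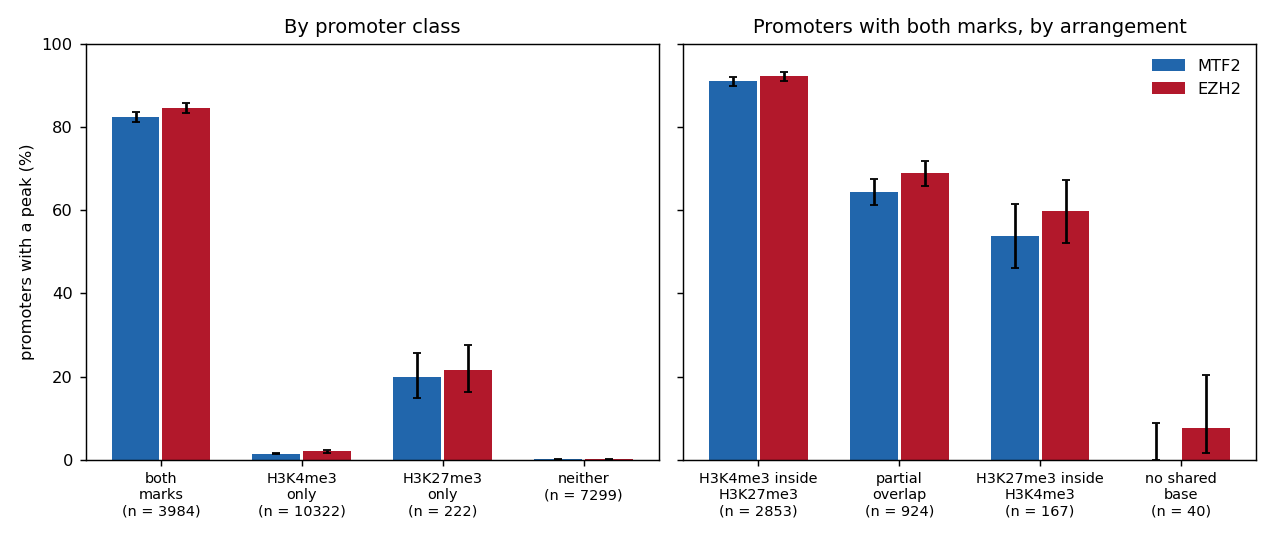
Share of promoters (%) with an MTF2 (blue) or EZH2 (red) peak, by class (left) and, for promoters with both marks, by the arrangement of the pair of peaks (right). Error bars are exact 95% intervals for counting over promoters; MTF2 is at 82.4% of promoters with both marks and at 19.8% of those with H3K27me3 only.

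In the gene-trap cells most of these promoters were called with H3K4me3 alone. Of the 3984 promoters with both marks in wild-type cells, 3954 (99.2%) had H3K4me3 in the gene-trap list and 556 (13.96%) had H3K27me3, against 66.1% and 2.68% of all promoters in the gene-trap lists. That left 3398 (85.3%) with H3K4me3 only, 0 with H3K27me3 only and 30 with neither mark. The H3K4me3 widths at the 3954 promoters were close in both genotypes, with a median of 1851 bp in gene-trap cells and 1844.5 bp in wild-type cells. It was 1769 bp in gene-trap cells and 1780 bp in wild-type cells at the 3398 promoters called without H3K27me3 there, and 2597.5 and 2421 bp at the 556 called with it. At promoters with H3K4me3 only in wild-type cells, the median was 2363 bp in gene-trap cells and 2746 bp in wild-type cells, a ratio of 0.861. The gene-trap H3K27me3 list as a whole held 963 peaks over 4.66 Mb, against 6294 over 29.3 Mb in wild-type cells. For H3K4me3 the lists held 26960 peaks over 52.6 Mb and 27418 over 64.3 Mb in the same order. With 1 list per genotype, a difference in calls or width between lists and one in depth or threshold cannot be told apart.

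Of the 222 promoters with H3K27me3 only in wild-type cells, 22 (9.91%, interval 6.32% to 14.6%) had H3K27me3 in the gene-trap list, beside the 13.96% (12.9% to 15.1%) of those with both marks. By class, 138 (62.2%) had neither mark there, 62 (27.9%) had H3K4me3 only, 16 (7.21%) had both and 6 (2.703%) had H3K27me3 only. H3K4me3 was thus called in gene-trap cells at 78 (35.1%, interval 28.9% to 41.8%) of these 222 promoters. All 222 lacked it within 1 kb of a TSS in wild-type cells, though some had it further out. Among promoters with neither mark in wild-type cells, 223 of 7299 (3.06%) had H3K4me3 in the gene-trap list.

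Over the whole genome, the H3K4me3 list held 27418 peaks over 64.3 Mb and the H3K27me3 list 6294 peaks over 29.3 Mb. They shared 9.68 Mb, which was 15.1% of the bases under H3K4me3 and 33.0% of those under H3K27me3. Of the H3K4me3 peaks, 6060 (22.1%) overlapped H3K27me3, and of the H3K27me3 peaks, 5409 (85.9%) overlapped H3K4me3. Most H3K27me3 domains held exactly 1 H3K4me3 peak, namely 4947 (78.6%), with a median width of 3638 bp. There were 885 (14.1%) with none (2339 bp), 315 with 2 (8697 bp) and 147 with 3 or more (19630 bp). An H3K4me3 peak overlapped 96.4% of the 4118 H3K27me3 peaks at a protein-coding promoter and 66.1% of the 2176 peaks at none.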

How the data were processed

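Libraries were prepared with a Kapa Hyper-prep kit and sequenced as 75 bp reads on a NextSeq, per the labels. CASAVA, BWA (0.7.10-r789), MACS2 (2.7) and the build mm10, or GRCm38, are named in the submitters' processing notes. What each tool did, the threshold, the control and the way libraries were combined are not given in the sources used here. The lists as deposited by the authors hold the chromosome, start and end of each region in bp, with no count, score, fold or p-value, so a missing peak can reflect depth or threshold as well as the mark.

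Starts were converted to positions counted from 1. Peaks were intersected with promoter windows in Python 3.11.15 with NumPy 2.4.6 and SciPy 1.17.1, and CpG was counted in the GRCm38 sequence. The class calls were tested on 2000 simulated promoters, all of which were recovered. Each had 1 TSS, and the peaks of its assigned marks covered that TSS. Promoters with several TSS, or with peaks in the window beside the TSS, were therefore not tried. The members, gene lists, families by symbol and alternatives were chosen with earlier results of these data known. Per list, the named genes were the 2 with both marks and the most shared bases, and up to 2 with the widest peak in each class holding fewer than 5 members. Outside the lists, the 5 with the most shared bases or the widest peak per class were named, passing over predicted genes, and 10 pluripotency and PRC2 genes were always named. Of the list symbols, 1 was not in the annotation. Some genes named by the rule are left out.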

Additional observations from a re-analysis of the deposited data

How the results depend on the processing

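The lists hold positions only, so no stricter peak threshold could be tried other than a minimum width. No paired analysis was possible because 1 list stands for both libraries of a group, and for the same reason no library could be left out. Of 124 values under alternatives, 96 stayed within a set tolerance and 28 moved beyond it. The tolerance was 1.5 times the count reported (for counts) or its 95% interval (for shares and medians). A reversal was defined only for the log2 differences in width, and 0 of these reversed. The cause of the moves was not tested. Within that tolerance, promoters with H3K27me3 only still ranged from 161 in a 2500 bp window to 307, and those with neither mark up to 10820. Both upper values came with merged windows counted in place of genes. With peaks of at least 1000 bp, 694 promoters had H3K27me3 only. The share with H3K4me3 among promoters with H3K27me3 was 96.3% in a 2500 bp window, 91.5% at the TSS base, 93.8% with 1 TSS per gene, 93.7% with an overlap of at least 500 bp, 83.2% with peaks of at least 1000 bp and 92.9% with merged windows counted in place of genes. Without H3K27me3 it was 59.3% in a 2500 bp window, 57.2% with 1 TSS, 55.9% with peaks of at least 1000 bp, 63.1% without predicted genes, 60.02% on autosomes and 47.7% with merged windows counted in place of genes. The log2 difference in H3K4me3 width was -0.50 with peaks of at least 1000 bp and -0.62 as a mean over CpG quintiles. For H3K27me3 width, the window and peak alternatives were not among the 124 values. Its medians with both marks and with H3K27me3 only were 4266 and 4078 bp with merged windows counted in place of genes. They were 4213 and 3072 bp in a 2500 bp window and 4538.5 and 3310 bp with peaks of at least 1000 bp. At least 500 shared bases were found at 93.8% of promoters with both marks, and at least 50% was covered by the other mark in 20.1% of H3K4me3 and 25.01% of H3K27me3 peaks. CpG within 1000 bp of the TSS was 4.95 per 100 bp with both marks, 4.30 with H3K4me3 only, 1.90 with H3K27me3 only and 0.800 with neither. At the TSS base, MTF2 was at 76.2% with both marks and 0.997% with H3K4me3 only, EZH2 at 78.5% and 1.32% of the same classes, 3 cell cycle inhibitors and 0 immune lineage genes had both marks, and 3243 of the 3984 promoters kept both.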

Other observations

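Other gene families, grouped by symbol after their values were seen, also differed in class. Of 391 Zfp genes, which encode zinc finger proteins, 322 had H3K4me3 only and 39 had both marks. Solute carriers (Slc) were close to all promoters, with 89 of 361 (24.7%) carrying both marks and 170 (47.1%) H3K4me3 only. Of 1091 olfactory receptor genes, 1086 had neither mark, and so did 325 of 326 vomeronasal receptor genes and all 42 beta defensin genes. Olfr94 was the only olfactory receptor gene with both marks, with H3K4me3 over 1433 bp inside H3K27me3 of 4035 bp. The median CpG density was 0.300 per 100 bp in the olfactory receptor family.

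Both marks were found at 63 of 948 promoters on the X chromosome (6.65%, interval 5.14% to 8.42%), against 3921 of 20696 on autosomes (18.9%). The share with H3K4me3 only was 39.9% on the X and 48.0% on autosomes, and the share with neither mark was 52.4% and 32.0%. How many X chromosomes the cells carry is not given in the sources used here, and its part in these shares was not tested.

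Some promoters with both marks had peaks that share no base. At Aatf, chosen after its values were seen, H3K4me3 of 1760 bp (chr11:84512474-84514233) ended next to H3K27me3 of 20019 bp (chr11:84514325-84534343), with no MTF2 or EZH2 peak at the Aatf promoter. The same H3K27me3 domain covers the promoter of Lhx1, a LIM homeodomain factor, which had both marks and both factors. At Foxd3, a pluripotency and neural crest factor chosen in the same way, 4424 bp of H3K27me3 lay inside 14215 bp of H3K4me3.

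Hprt, a housekeeping gene, was the 1 member of that list with neither mark in wild-type cells. The gene-trap list had an H3K4me3 peak of 2646 bp there (chrX:52987646-52990291). Within 100 kb of its start there were 5 H3K4me3 peaks in each list. A deletion in Hprt is known in some sublines of E14, the labels name only E14, and its part here was not tested.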
